A study of Homo sapiens with 8 samples.

Results

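The 150 genes described are small nucleolar RNA (snoRNA) genes and their relatives of the Cajal body. They are the genes whose symbol begins with SNORA, SNORD or SCARNA and whose raw counts sum to 20 or more over 8 RNA-seq libraries of HEK293, an established line derived from human embryonic kidney. They were drawn from 412 such entries among 27936 genes, of which 96 had between 1 and 19 counts and 166 had none. By class, 55 members were H/ACA snoRNAs of 108 entries, 90 were C/D snoRNAs of 280 and 5 were small Cajal body RNAs (scaRNAs) of 24. Members were chosen by their summed raw count over all libraries, so that sum is a description and was not tested. At the limit, SNORD3B-2, SNORA20, SNORD51 and SCARNA16 were the last members with 20 counts each, while SNORA21, SNORD67 and SNORD98 fell just short with 19. The KO libraries are labelled genotype HEKg1/C9 and titled TIP60 KO, and the control libraries are labelled HEKg1. In each arm 2 libraries carry the label sgRNA1 and 2 the label sgRNA2, and all cells received doxycycline at 1 µg/ml for 3 days to induce the guide RNAs and were grown with 2 mM GlutaMAX. The labels do not say whether a guide's replicates are separate cultures or whether a line is 1 clone, so p-values measure only the spread between these libraries.

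TIP60, the product of KAT5, is an enzyme that acetylates histones and other proteins as part of a chromatin complex. KAT5 itself read 18.0 to 20.2 CPM (read counts made comparable between libraries by their totals and TMM factors, as throughout) in KO and 44.5 to 49.0 in control, a log2 fold change of -1.32 ± 0.0641 (SE). Library totals were 12478705 to 18841774 counts, except for control sgRNA1 replicate 2 with 3723992. Of 11 HEK293 marker genes 10 passed the count filter, while LHX1 had 19 counts and PAX2 stayed under 1 CPM on average in both arms. These markers moved between the arms: 6 rose, NEFM by 0.57, and VIM fell by 0.30, and their sum was 14427 to 15647 CPM in KO and 9472 to 11255 in control. Leukocyte markers summed to 0.199 to 0.520 CPM in KO and 0.0807 to 0.538 in control, endothelial markers to 0.594 to 1.40 and 0 to 0.325, and hepatocyte markers to 0.234 to 0.594 and 0 to 0.0690. Fibroblast markers summed to 24.2 to 26.8 CPM in KO and 18.3 to 27.7 in control, nearly all of it from the collagen genes COL1A1 and COL3A1, neither of them called, while DCN and LUM were listed at 0 in every control library. The part of these marker levels in the results was not tested. In whole-cell RNA, fewer cells of a kind and less RNA per cell cannot be told apart.

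SnoRNAs are short non-coding RNAs that pair with other RNAs and guide their modification. C/D snoRNAs carry a box C (UGAUGA) near the start and a box D (CUGA) near the end, assemble with fibrillarin, NOP56, NOP58 and SNU13, and direct ribose methylation of ribosomal RNA. H/ACA snoRNAs fold into hairpins followed by a hinge box (ANANNA) and an ACA near the end, assemble with dyskerin, NHP2, NOP10 and GAR1, and direct pseudouridylation. ScaRNAs use the same proteins in Cajal bodies, where they guide modification of spliceosomal RNAs. A few members, such as U3 and U17, act in cleavage of the ribosomal RNA precursor. Most vertebrate snoRNAs lie inside an intron of a host gene and are released when the spliced-out intron is debranched and trimmed, so that they have neither a cap nor a poly(A) tail of their own. The libraries were made with a kit for mRNA, which selects polyadenylated RNA, and the counts at these genes can hold reads of unspliced, alternatively spliced or adenylated host RNA as well as mature snoRNA. Gene counts do not tell these apart.

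Sequences are shown for a selection of called members of each class and for the U3 copies, chosen with their values in view and taken from the GENCODE v29 transcripts (GRCh38) and written with T for U. Capitals mark a TGATGA found within the first 40 bases and a CTGA found within the last 20 in C/D members, and an ACA within the last 8 bases in H/ACA members and scaRNAs. The first set holds 4 C/D members that fell in KO, in chr9:133350456-133350528 (plus strand, RPL7A), chr5:181241814-181241892 (minus strand, RACK1), chr15:66501250-66501318 (minus strand, RPL4) and chr22:39319050-39319113 (minus strand, RPL3), and SNORD99, a C/D member that rose, in chr1:28578749-28578822 (minus strand, SNHG12).
SNORD36A: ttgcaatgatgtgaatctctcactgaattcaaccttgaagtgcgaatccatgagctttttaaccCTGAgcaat
SNORD96A: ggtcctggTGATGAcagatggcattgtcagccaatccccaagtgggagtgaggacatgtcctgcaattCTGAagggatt
SNORD18C: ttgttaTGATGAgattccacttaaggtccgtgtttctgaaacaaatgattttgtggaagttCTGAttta
SNORD43: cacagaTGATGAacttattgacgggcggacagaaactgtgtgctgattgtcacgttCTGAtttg
SNORD99: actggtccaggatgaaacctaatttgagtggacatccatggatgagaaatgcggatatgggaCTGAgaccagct

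The second set holds 3 H/ACA members and 1 scaRNA that fell, in chr11:93730513-93730646 and chr11:93730979-93731099 (both minus strand, TAF1D), chr11:811681-811814 (plus strand, RPLP2) and chr15:82755945-82756071 (plus strand, SNHG21), and SNORA61, an H/ACA member that rose, in chr1:28579764-28579893 (minus strand, SNHG12). No ACA lies in the last 8 bases of the SNORA25 transcript as annotated.
SNORA25: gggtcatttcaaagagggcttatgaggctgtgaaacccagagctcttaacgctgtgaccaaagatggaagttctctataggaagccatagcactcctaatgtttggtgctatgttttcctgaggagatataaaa
SNORA32: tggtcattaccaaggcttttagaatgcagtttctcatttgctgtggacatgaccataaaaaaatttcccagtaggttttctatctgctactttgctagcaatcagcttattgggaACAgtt
SNORA52: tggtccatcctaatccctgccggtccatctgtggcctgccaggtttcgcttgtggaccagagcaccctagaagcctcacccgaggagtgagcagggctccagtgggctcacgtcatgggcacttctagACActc
SCARNA15: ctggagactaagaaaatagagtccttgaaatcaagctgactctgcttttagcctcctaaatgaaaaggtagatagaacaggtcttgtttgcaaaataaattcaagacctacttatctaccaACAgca
SNORA61: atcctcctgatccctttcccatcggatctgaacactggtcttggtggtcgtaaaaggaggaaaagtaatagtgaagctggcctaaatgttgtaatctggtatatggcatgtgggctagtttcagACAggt

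The third set shows why counts of the U3 genes cannot be assigned to 1 copy. SNORD3A lies in chr17:19188016-19188232 (plus strand), SNORD3B-1 in chr17:19061912-19062128 (plus strand) and SNORD3D in chr17:19112419-19112636 (minus strand). The last 2 differ by 2 edits over 217 bases, SNORD3A and SNORD3B-1 by 1, and SNORD3B-2 has the same sequence as SNORD3B-1.
SNORD3A: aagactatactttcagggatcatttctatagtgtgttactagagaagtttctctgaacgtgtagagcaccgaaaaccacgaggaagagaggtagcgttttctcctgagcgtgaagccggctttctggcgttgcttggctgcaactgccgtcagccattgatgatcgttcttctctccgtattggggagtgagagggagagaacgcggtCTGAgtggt
SNORD3B-1: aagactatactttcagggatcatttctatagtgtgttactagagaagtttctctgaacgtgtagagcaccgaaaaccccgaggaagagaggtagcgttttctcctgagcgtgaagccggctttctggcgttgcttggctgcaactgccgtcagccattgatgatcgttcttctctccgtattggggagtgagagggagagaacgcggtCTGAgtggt
SNORD3D: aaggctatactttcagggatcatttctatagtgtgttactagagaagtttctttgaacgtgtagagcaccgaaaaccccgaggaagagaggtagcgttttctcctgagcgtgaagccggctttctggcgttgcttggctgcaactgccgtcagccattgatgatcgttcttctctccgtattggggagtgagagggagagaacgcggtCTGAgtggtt

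Sequences were found for 135 of the 150 members. CTGA lay in the last 20 bases of 74 of 76 C/D members, or 97.4%, beside 95.3% of the 278 genes with SNORD symbols in GENCODE. TGATGA lay anywhere in 52 of them, or 68.4%, beside 77.3%. ACA lay in the last 8 bases of 49 of 55 H/ACA members, or 89.1%, beside 91.2% of 147 SNORA genes. ANANNA lay anywhere in all 55, beside 98.6% of the SNORA genes. That loose pattern also lay in 80.3% of the C/D members, so a match does not mark a hinge box. Only the sense strand of the transcript was searched, and the motifs can overlap. Another locus at 90% identity or more was found in GENCODE for 25 members, SNORD96A, SNORA70, SNORA40, both U17 genes and the U3 genes among them, and their counts are uncertain for that reason.

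The members lay on 20 chromosomes and were 43 to 270 bases long. Their counts were few: all 150 together held 13990 counts, the median member had 60 and the most abundant, SNORA40 in TAF1D, had 613. The 10 most abundant held 28.4% of the members' counts. Per kilobase of gene, SNORD80 in GAS5 was highest with 63.6 CPM per kb, followed by SNORA40 with 46.4, SNORD96A with 35.1 and SNORA61 with 33.7. A host gene spans all but 4 members, at 75 loci, and 143 members could be set beside a host present in the tables. The median member stood at 6.30% of its host's CPM per kb. That share was 1.39% for the 48 members in ribosomal protein genes, 16.0% for 36 in long non-coding RNA genes and 6.53% for 59 in other genes. Only 4 members stood above their host per kb, namely SNORA40, with 119.5% of TAF1D, and SNORA67, SNORA48 and SNORD10, whose listed host is the readthrough gene SENP3-EIF4A1. EIF4A1, a translation initiation helicase gene at the same locus, is listed at 0 in all 8 tables. How reads that fall on more than 1 gene were counted is not stated in the sources used here. The counts of SENP3-EIF4A1, of its members and of the 102 members that share bases with an annotated exon can depend on that choice.

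Summed over all members, snoRNA genes were lower in KO. The sum was 129, 201, 157 and 149 CPM in the control libraries and 107, 119, 114 and 127 in the KO libraries, in the order sgRNA1 replicates 1 and 2, then sgRNA2 replicates 1 and 2, which is used for every member below. Every KO library was below every control library, and the means were 117 ± 8.24 CPM in KO and 159 ± 30.2 in control (SD, n = 4), or 73.3% of control. The highest control value came from the shallowest library, and without it the ratio of KO to control was 0.803. With sgRNA1 alone the ratio was 0.685 and with sgRNA2 alone 0.784. The members' share of all counts was 0.0108 to 0.0128% in KO and 0.0127 to 0.0200% in control. A set of 66 further short RNA genes with 20 or more counts, most of them microRNA genes, summed to 77.5% of control in KO. KO lay below control in all libraries, and without the shallowest library the ratio was 0.746. That sum was 425 CPM in KO and 548 in control, and a few loci made up most of it. MIR3654 alone averaged 284 CPM over all libraries, MIR4426 67.8 and MIR4444-2 59.7. Of the 34 tested 11 fell and 2 rose, beside 31.2% and 31.8% of all tested genes.

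By class, C/D members summed to 71.5, 112, 82.4 and 82.5 CPM in the control libraries and 57.9, 64.6, 59.8 and 67.3 in the KO libraries, and KO lay below control throughout. Their ratio was 0.717, or 0.792 without the shallowest control library. H/ACA members summed to 52.4, 82.4, 69.3 and 59.3 CPM in the control libraries and 46.1, 50.1, 49.8 and 54.9 in the KO libraries, with a ratio of 0.763, or 0.833 without that library. Here the groups overlapped, because control sgRNA1 replicate 1 lay below KO sgRNA2 replicate 2. The 5 scaRNAs summed to 5.41, 6.46, 5.66 and 7.40 CPM in the control libraries and 3.09, 4.08, 4.08 and 4.43 in the KO libraries, with a ratio of 0.629 and no overlap. The difference between classes was not tested.

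**Figure D1:**
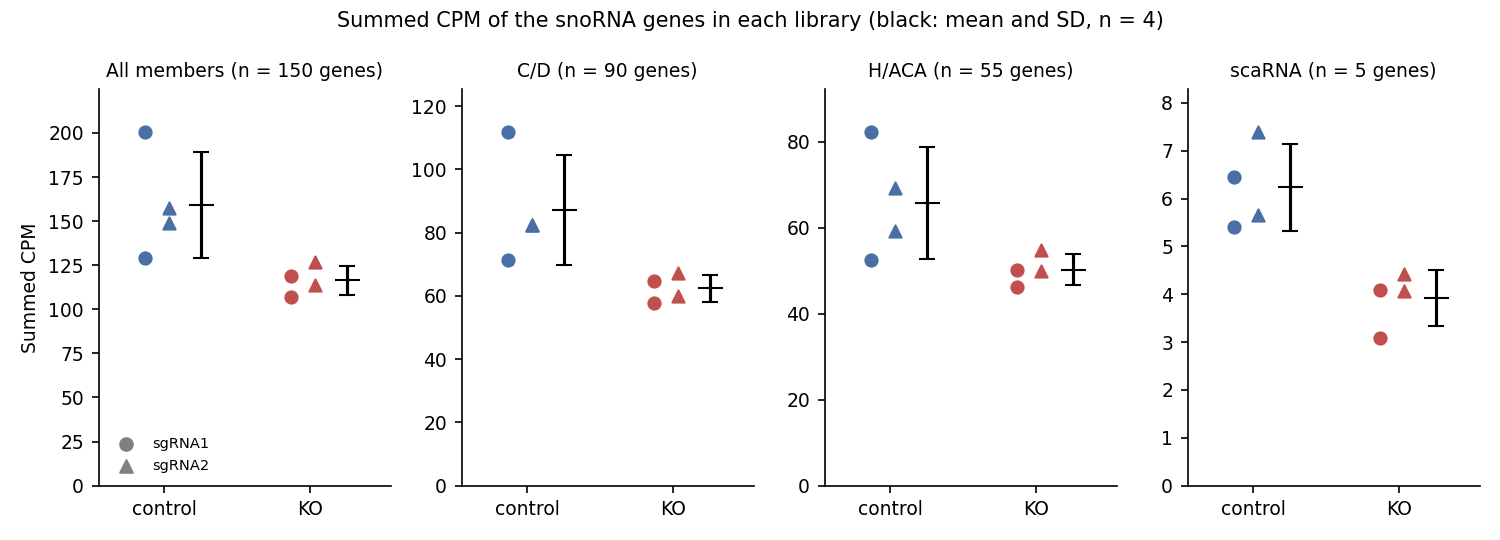
Summed CPM (vertical axis, from 0) of all 150 members and of the C/D, H/ACA and scaRNA classes in each control and KO library, with circles for sgRNA1, triangles for sgRNA2 and black marks for the mean and SD of 4 libraries. KO libraries sit below the control libraries in every panel except H/ACA, where 1 control library falls among them, and the highest control circle in the first 3 panels is the shallowest library.

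Single members were tested with edgeR's quasi-likelihood test across all 14455 genes that passed its count filter, with Benjamini-Hochberg adjustment over all of them and a call at an adjusted p under 0.05. The filter left 86 of the 150 members: 31 H/ACA, 52 C/D and 3 scaRNAs. Of these 86, 19 fell in KO, 4 rose and 63 were not called. Over all tested genes 31.2% fell and 31.8% rose, and over the 3525 tested genes with totals in the members' range of 42 to 613 counts 11.0% fell and 37.5% rose. Whether the members' shares differ from those of other genes was not tested. The median log2 fold change was -0.49 over the 86, with 71 below 0, while it was 0.01 over all tested genes and 0.32 over genes of like depth. By class the median was -0.46 for H/ACA (6 fell, 1 rose), -0.52 for C/D (11 fell, 3 rose) and -0.76 for scaRNAs (2 of 3 fell). The C/D median turned to 0.11 over 10 tested members with a GENCODE strand and no base shared with another gene's exon on either strand. Members without a strand in GENCODE were left out of that set. Over all classes its 15 tested members had a median of 0.002, with 7 below 0. Where no strand was required, the 17 tested members had a median of -0.23, with 9 below 0. The scaRNA median ran from -0.88 without control sgRNA1 replicate 1 to -0.14 without KO sgRNA1 replicate 1, with -0.27 to -0.52 without 5 of the other libraries.

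The tested members are not all members. In 26 of them fewer than 2 KO libraries reached the filter's level of 0.716 CPM, and in 9 fewer than 2 control libraries did. These groups hold 4 of the 19 members that fell, namely SNORD43, SNORD83B, SNORD18C and SNORD35B. They also hold 3 of the 4 that rose, SNORD99, SNORD3B-1 and SNORD3D. A fit of all genes with a total of 20 or more tested all 150 members, of which 19 fell and 5 rose. In that fit 27.1% of 15925 genes fell and 32.3% rose, and among genes of 20 to 613 counts 7.66% fell and 34.5% rose. The members' median was -0.36 and 109 of 150 were below 0, while the median of genes of 20 to 613 counts was 0.41. SNORD15B in RPS3 (log2 -1.75) and SNORD65 in SNHG29 (-2.43) had not passed the count filter and were called lower here, and SNORD3B-2 was called higher (2.51), while SNORD83B and SNORA70 lost their calls. Every KO library lay below every control library for 17 of the 86 members and above for 1, SNORA50C, beside 25.6% and 27.3% of all tested genes.

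Of the members that fell, several lie in genes for ribosomal proteins or ribosome-bound proteins. SNORD36A, a C/D snoRNA in RPL7A, had the smallest adjusted p of all members. It read 3.39, 4.31, 2.34 and 2.60 CPM in the control libraries and 1.28, 1.63, 1.04 and 1.59 in the KO libraries, without overlap, and its log2 fold change was -1.13 ± 0.220 (SE, edgeR adjusted p = 1.55e-04). RPL7A, a large-subunit protein gene, fell (-0.19 ± 0.0531, adjusted p = 0.00353). The other 3 members of RPL7A, SNORD24, SNORD36B and SNORD36C, were not called (-0.36, -1.23 and -0.67 in the fit of all 150).

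SNORD96A lies in RACK1, the gene of a ribosome-bound scaffold protein. It read 3.15, 4.04, 2.62 and 3.90 CPM in the control libraries and 1.98, 1.26, 1.52 and 1.72 in the KO libraries, again without overlap (-1.01 ± 0.214, adjusted p = 3.47e-04), while RACK1 changed by -0.19 ± 0.0507. SNORD43 and SNORD83B both lie in RPL3. SNORD43 read 0.807, 1.08, 0.759 and 0.813 CPM in the control libraries and 0.350, 0.520, 0.418 and 0.199 in the KO libraries (-1.15 ± 0.376, adjusted p = 0.0116), with every KO library below control. SNORD43 passed the count filter through the control libraries alone, the arm where it was higher, so its call leans on the values that admitted it. SNORD83B fell by 0.70 on the log2 scale (adjusted p = 0.0493), and RPL3 fell by 0.25. SNORD18C in RPL4 (-1.17 ± 0.450, adjusted p = 0.0289) had 57 counts in all, and its groups overlapped. SNORD83B and SNORD18C also had fewer than 2 KO libraries at the filter's level, so the same limit holds for them.

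SNORA52 in RPLP2, the gene of a ribosomal stalk protein, read 1.05, 2.69, 1.59 and 1.87 CPM in the control libraries and 0.876, 0.742, 0.366 and 1.06 in the KO libraries (-1.12 ± 0.335, adjusted p = 0.00653). The lowest control library lay just below the highest KO library. SNORA70 in RPL10 fell by 0.48 (adjusted p = 0.0446) with overlap. SNORD23 in NOP53, a ribosome biogenesis factor gene, read 2.02, 3.23, 2.69 and 2.28 CPM in the control libraries and 1.28, 1.78, 0.993 and 1.99 in the KO libraries (-0.72 ± 0.249, adjusted p = 0.0162). Together the 48 members in ribosomal protein genes, RACK1 included, summed to 61.5% of control, with KO below control in all libraries. Without the shallowest library their ratio was 0.693. Of the 27 tested 8 fell, a share near the 31.2% of all tested genes, while 11.0% of tested genes with 42 to 613 counts fell. The difference from either share was not tested.

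GAS5 is a long non-coding RNA gene whose introns carry a row of C/D snoRNAs, 9 of them members. Their summed level was between 12.6 and 15.3 CPM in the control libraries and 8.35, 10.2, 9.09 and 10.2 in the KO libraries, or 65.6% of control without overlap. SNORD80, the most abundant, read 5.17, 4.85, 5.72 and 6.43 CPM in the control libraries and 2.92, 4.60, 3.29 and 3.18 in the KO libraries (-0.71 ± 0.165, adjusted p = 8.27e-04). SNORD47 read 2.26, 1.88, 2.76 and 2.11 CPM in the control libraries and 1.34, 1.19, 1.04 and 1.46 in the KO libraries (-0.89 ± 0.229, adjusted p = 0.00199). Both had every KO library below every control library, as had SNORD79 (-0.72 ± 0.260, adjusted p = 0.0208). The other 4 tested ranged from -0.71 (SNORD78) to -0.08 (SNORD74) and were not called. GAS5 itself read 57.9 ± 1.81 CPM in KO and 55.6 ± 6.31 in control and was not called (0.08 ± 0.0634, adjusted p = 0.302).

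TAF1D, which encodes a subunit of the selectivity factor of RNA polymerase I, holds 8 members, all tested and all with a log2 fold change below 0. SNORA32 read 3.47, 4.04, 4.07 and 3.74 CPM in the control libraries and 2.39, 2.60, 1.62 and 2.32 in the KO libraries, without overlap (-0.80 ± 0.187, adjusted p = 8.96e-04). SNORA25 read 1.21, 2.15, 2.62 and 2.11 CPM in the control libraries and 0.934, 0.891, 0.836 and 1.06 in the KO libraries, also without overlap (-1.08 ± 0.264, adjusted p = 0.00133). The most abundant members of this host were not called: SNORA40 changed by -0.35 ± 0.163, SNORA18 by -0.25 ± 0.156 and SNORA8 by -0.12 ± 0.206. TAF1D read 48.2 ± 3.30 CPM in KO and 53.5 ± 10.5 in control (-0.09 ± 0.0805, adjusted p = 0.337). Within both hosts, then, members of 1 transcript unit differed in log2 fold change while the host was not called, and the difference between members was not tested.

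SNHG1 and SNHG12 are small nucleolar RNA host genes, non-coding RNAs known mainly for the snoRNAs in their introns, and both rose in KO. SNHG12 read 34.5 ± 0.620 CPM in KO and 17.1 ± 2.00 in control (1.00 ± 0.0771, adjusted p = 6.88e-10). Of its 4 members 2 rose. SNORA61 read 1.45, 5.38, 3.45 and 4.23 CPM in the control libraries and 4.32, 5.12, 4.86 and 6.22 in the KO libraries (0.67 ± 0.216, adjusted p = 0.0104), and its groups overlapped through control sgRNA1 replicate 2. SNORD99 read 0.0807, 0, 0.690 and 0.163 CPM in the control libraries and 0.525, 0.816, 0.941 and 0.662 in the KO libraries (1.34 ± 0.495, adjusted p = 0.0232), and control sgRNA2 replicate 1 lay among the KO libraries. SNORD99 passed the count filter through the KO libraries alone, the arm where it was higher, so its call leans on the values that admitted it. SNORA44 was at 0.70 and SNORA16A at -0.09, neither called.

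SNHG1 also rose (0.42 ± 0.0679, adjusted p = 1.72e-05), while its 5 tested members lay between -0.74 and -0.05. SNORD22 fell while its host rose, the only member to do so. It read 0.969, 2.15, 2.14 and 2.03 CPM in the control libraries and 0.992, 1.56, 0.836 and 0.926 in the KO libraries (-0.74 ± 0.298, adjusted p = 0.0369). Control sgRNA1 replicate 1 lay at the KO level. The log2 fold change was -0.02 with sgRNA1 and -1.24 with sgRNA2, so the fall came from the sgRNA2 libraries. The difference between guides had an unadjusted p of 0.0425 and did not pass after adjustment (edgeR, adjusted p = 0.9999). SNORD22, or U22, is known for a part in processing of the small-subunit ribosomal RNA.

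ScaRNAs were few. SCARNA15, an H/ACA-type guide in SNHG21, read 1.94, 0.538, 1.79 and 1.63 CPM in the control libraries and 0.467, 0.816, 0.993 and 0.596 in the KO libraries (-1.17 ± 0.310, adjusted p = 0.00253). The shallowest control library was the exception among the controls, at the KO level. SNHG21 fell too (-0.79 ± 0.118, adjusted p = 6.78e-06). SCARNA12 in PHB2, the gene of a mitochondrial prohibitin, read 1.70, 3.50, 2.28 and 3.66 CPM in the control libraries and 1.46, 1.48, 1.62 and 1.52 in the KO libraries without overlap (-0.76 ± 0.241, adjusted p = 0.00976), and PHB2 fell by 0.51. SCARNA27 in EEF1E1 was not called (-0.23 ± 0.260), while EEF1E1 fell by 0.35.

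Some members are known for precursor cleavage rather than modification. U3 is the snoRNA of the small-subunit processome, and its genes here are SNORD3A, SNORD3B-1, SNORD3B-2 and SNORD3D, which have their own promoters, so 3 of them have no host and SNORD3D overlaps a clone-named locus, AC007952.4. Summed, because the copies cannot be separated, they read 1.45, 1.08, 1.17 and 2.52 CPM in the control libraries and 3.04, 2.52, 2.87 and 3.64 in the KO libraries. Every KO library was above every control library, by a narrow margin at the lowest, and the mean in KO was 194% of control. SNORD3B-1 read 0.161, 0, 0 and 0.651 CPM in the control libraries and 0.759, 0.891, 0.784 and 0.463 in the KO libraries (1.59 ± 0.588, adjusted p = 0.0234). SNORD3D rose by 1.22 ± 0.519 (adjusted p = 0.0471) with 46 counts in all. Both passed the count filter through the KO libraries alone, with 0 control libraries at its level. Their calls thus lean on the values that admitted them. SNORD3A, the deepest copy with 143 counts, was not called (0.42 ± 0.280, adjusted p = 0.203).

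U17 is encoded by SNORA73A and SNORA73B, at the locus of RCC1, the nucleotide exchange factor of Ran, and of the non-coding SNHG3. SNORA73A read 2.10, 0.808, 1.79 and 1.22 CPM in the control libraries and 0.934, 1.48, 0.784 and 0.397 in the KO libraries and fell (-0.93 ± 0.314, adjusted p = 0.0141), with overlapping groups. RCC1 fell by 0.35 and SNHG3 by 0.55. SNORA73B had 38 counts and was at -0.43 in the fit of all 150, not called. SNORD13, or U13, a partner of the acetyltransferase NAT10, had 22 counts and was at 1.23, not called. U8 was not among the members. SNORA67, an H/ACA snoRNA at the EIF4A1 locus, read 2.26, 3.77, 2.97 and 3.09 CPM in the control libraries and 1.93, 1.11, 1.52 and 2.45 in the KO libraries (-0.69 ± 0.231, adjusted p = 0.0133), and the readthrough gene SENP3-EIF4A1 was at -0.77 ± 0.239 with 1.66 ± 0.594 CPM in KO.

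**Figure D2:**
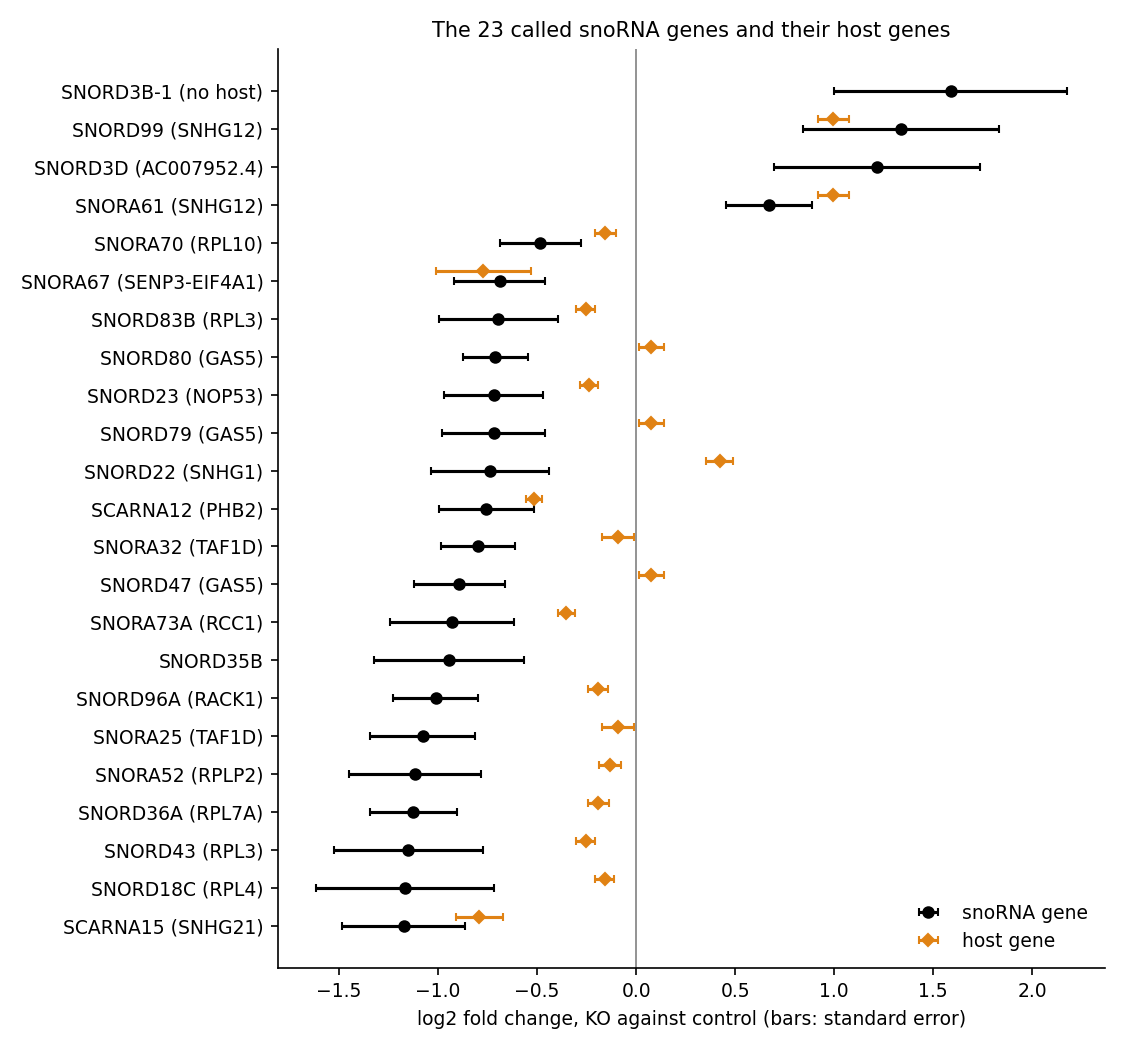
Log2 fold change of KO against control (horizontal axis) with its standard error for the 23 called snoRNA genes (black circles) and for their host genes (orange diamonds), with the host named in brackets and 1 host not shown. The 19 members that fell, picked by that fall, lie between -1.17 and -0.48, while their hosts, not so picked, lie between -0.79 and 0.42. SNORD3D's overlapping locus is not in the tables.

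The single-member calls differ in how they stand up to 1 library being left out. SNORD36A, SNORD96A, SNORD80, SNORD47, SNORA25, SNORA32 and SCARNA15 kept an adjusted p under 0.05 (edgeR) whichever of the 8 libraries was omitted. The call was lost on omission of 1 library for SNORA61 (control sgRNA1 replicate 1, adjusted p = 0.0938), SCARNA12 (control sgRNA2 replicate 2, 0.0834), SNORA52 (KO sgRNA2 replicate 1, 0.0554), SNORA67 (KO sgRNA2 replicate 1, 0.0756) and SNORD43 (KO sgRNA2 replicate 2, 0.0537). SNORD23 lost it for either of 2 libraries, SNORA73A and SNORD79 for 3 of 8, SNORD18C, SNORD3B-1 and SNORD99 for 4, and SNORA70, SNORD22, SNORD35B, SNORD3D and SNORD83B for 6, with adjusted p up to 0.197. All 4 calls of a rise were lost without control sgRNA1 replicate 1, where 25 of 111 tested members fell, and without the shallowest library 3 rose and 16 fell of 95. With each guide pair on its own, all 23 called members had the same sign, SNORD22 with only -0.02 for sgRNA1. The calls were made on both pairs together, so the like sign is no separate check. The difference between guides passed an adjusted p of 0.05 for 0 of the 86 members (edgeR, smallest 0.9999) and an unadjusted p of 0.05 for 5. Of those 5, SNORA4, SNORD2 and SNORA63 lie in EIF4A2, whose members summed to 0.555 of control with sgRNA1 and 1.38 with sgRNA2. The others were SNORD22 and SNORA64.

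Each member was then set beside its host. Of 75 host loci 73 were tested as genes, and 40 of these fell and 9 rose, with a median log2 fold change of -0.13, beside 31.2% and 31.8% of all tested genes. Among 25 ribosomal protein hosts 16 fell and 2 rose, among 14 long non-coding hosts 6 fell and 3 rose, and among 34 others 18 fell and 4 rose. The 81 pairs of a tested member with a tested host split as follows. Both fell in 13 pairs and both rose in 2, both of them in SNHG12. The member fell without a call for the host in 5, all in GAS5 or TAF1D, and against a rise of the host in 1. In 26 pairs only the host fell, in 13 only the host rose, and in 21 neither was called.

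For the 19 members that fell, the median log2 fold change was -0.89 and that of their hosts -0.19. These members were picked by their fall in the same libraries and the hosts were not, so the 2 medians are not alike. Over all 86 tested members the median was -0.49. The log2 ratio of member to host CPM (with 0.5 CPM added to each) was lower in KO for 70 of 81 pairs, with a median difference of -0.27. An exact two-sided permutation test of the ratio over 4 against 4 libraries cannot go below p = 0.0286. That value was reached by 12 pairs, all with the member lower relative to its host, and 0 of 81 passed after Benjamini-Hochberg adjustment over the pairs, the smallest value being 0.193. The pairs with the widest separation were SNORA16A against SNHG12 (a difference of -1.10 in the log2 ratio), SNORD22 and SNORD25 against SNHG1 (-0.93 and -0.81) and SNORD36A against RPL7A (-0.76). Across the 81 pairs the log2 fold changes of member and host had Pearson's r of 0.62 and Spearman's rho of 0.52. Members of 1 host share the host's value and all share the same libraries. Without the 4 pairs of SNHG12, r was 0.44 over 77 pairs.

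**Figure D3:**
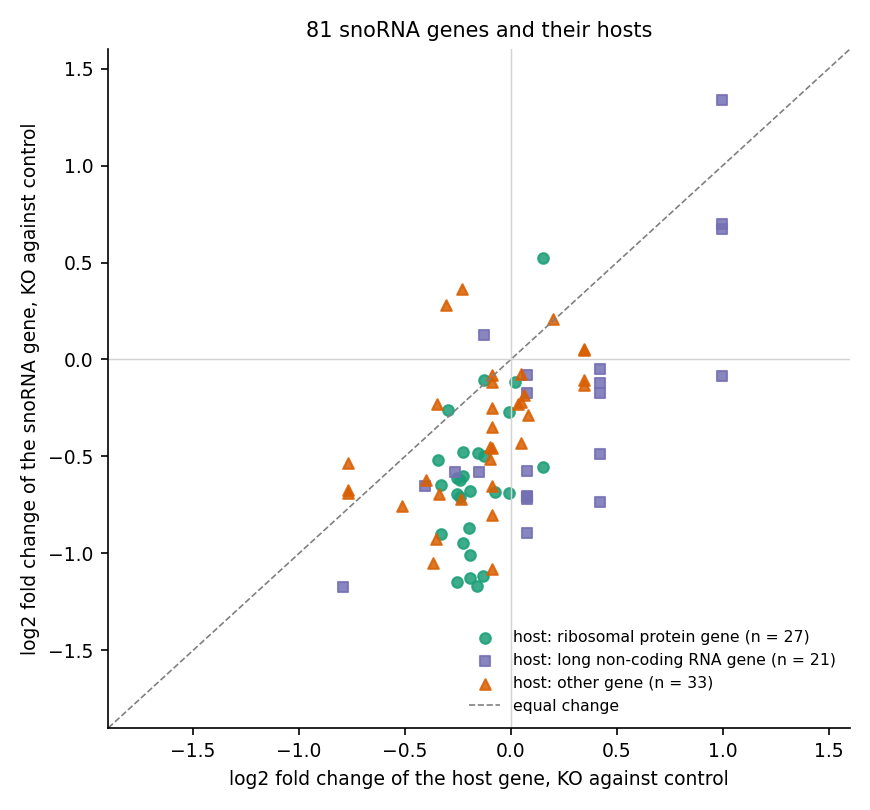
Log2 fold change of each tested snoRNA gene (vertical axis) against that of its host gene (horizontal axis) for 81 pairs, marked by the kind of host, with the dashed line where both change equally. Most points lie below the line, and 3 of the 4 members of SNHG12 are the squares at the upper right.

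Hosts that hold several members show the spread within 1 transcript unit. The 15 hosts with 3 or more members hold 66 of the 150. Of these, RPL7A, RPL3, RPL4 and GAS5 had summed member levels without overlap between the groups, at 48.7%, 51.2%, 59.8% and 65.6% of control. Among all tested genes, taken singly, 25.6% had every KO library below every control library, a share near that of these 4 among the 15 hosts. EIF4A2, a translation initiation helicase gene, rose (0.35 ± 0.0432, adjusted p = 6.54e-07). Its 4 members, all tested, were between -0.13 and 0.06 over both guides, without a call. These values average unlike changes, since the members summed to 0.555 of control with sgRNA1 and 1.38 with sgRNA2. NOP56, itself a C/D core protein gene, changed by -0.10 ± 0.0414, and its members SNORD110 and SNORA51 were at -0.51 and -0.45, not called. RPS12, GNL3, RABGGTB and SNHG17 held 3 members each, none called.

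**Figure D4:**
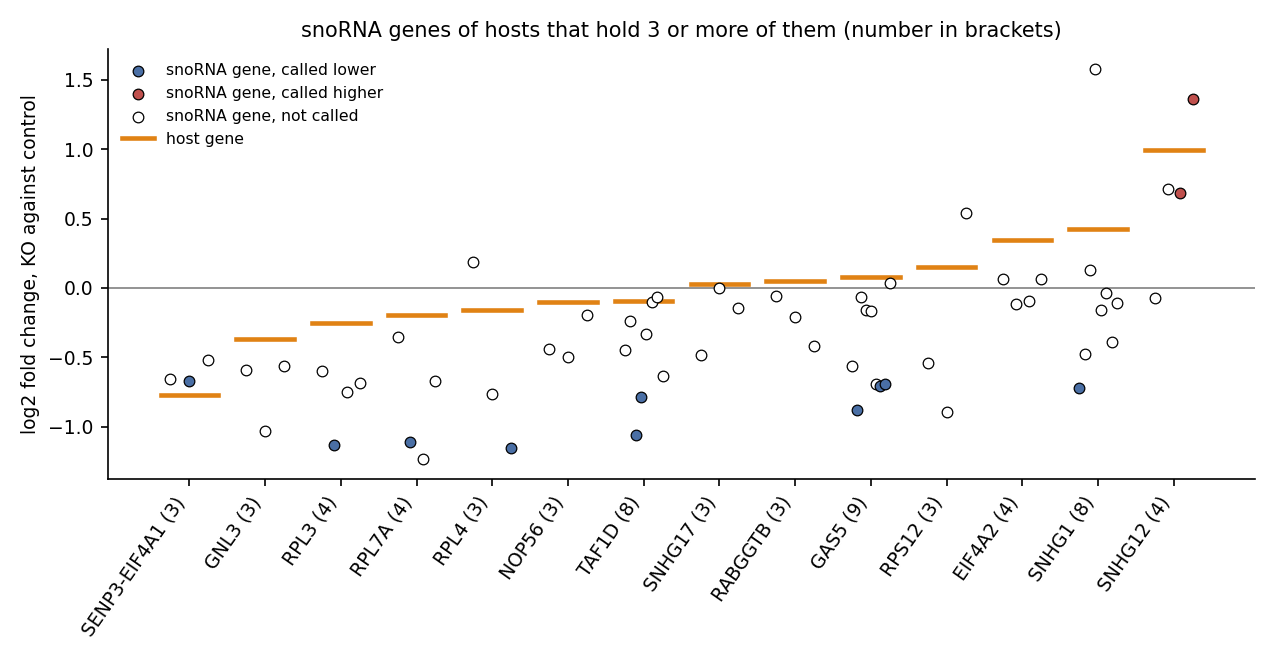
Log2 fold change of KO against control (vertical axis) for the snoRNA genes of hosts that hold 3 or more of them, with 1 such host not shown, from the fit of genes with 20 or more counts (blue, called lower; red, called higher; white, not called), with the host's own change as an orange bar. Of the hosts shown SNHG12 alone has members called higher, and in SNHG1, GAS5 and TAF1D called and uncalled members stand side by side.

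Members were also described by their place relative to annotated exons. In GENCODE v29, 102 members share bases with an exon of at least 1 annotated transcript of the host or another gene and 48 do not. Of the 69 tested members on an exon 19 fell and 2 rose, with a median of -0.52 and 62 below 0. Of the 17 tested members on no exon 0 fell (edgeR, 0 also at an unadjusted p under 0.05) and 2 rose (SNORD99 and SNORD3B-1), with a median of -0.23 and 9 below 0. Over all tested genes 31.2% fell, and 11.0% of those of like depth. On no exon, limma-voom called 0 falls, DESeq2 0 with 1 at an unadjusted p under 0.05, the replicate block 1, and the fit with no filter 2 of 48. Without control sgRNA1 replicate 1, 20 of 82 on an exon and 5 of 29 on none fell, and over the other 7 omissions 13 to 22 and at most 1 did. The summed level in KO was 70.7% of control for the first group, without overlap, and 84.0% for the second, with overlap. Leaving out the shallowest library gave ratios of 0.770 and 0.944. The tested members on an exon were slightly deeper (median total 105 against 84 counts), the split was made with these values in view, and the difference between the groups was not tested. In the fit of all 150 members, 18 of 102 on an exon fell, as did 1 of 48 on none (SNORD15B).

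The genes that build, mature and degrade snoRNAs were taken as 7 lists. All 4 core proteins of C/D particles fell, beside 31.2% of all tested genes: the methyltransferase fibrillarin (FBL, -0.57 ± 0.0499, adjusted p = 4.46e-09), SNU13 (-0.43 ± 0.0466), NOP58 (-0.18 ± 0.0424) and NOP56 (-0.10 ± 0.0414, adjusted p = 0.0416). All 4 H/ACA core proteins fell as well, namely NHP2 (-0.35 ± 0.0493), GAR1 (-0.28 ± 0.0672), the pseudouridine synthase dyskerin (DKC1, -0.27 ± 0.0405) and NOP10 (-0.23 ± 0.0634). The medians were -0.31 and -0.27, beside 0.01 over all genes. FBL read 191 ± 15.8 CPM in KO and 282 ± 16.1 in control (SD, n = 4) and DKC1 182 ± 4.79 CPM in KO and 219 ± 3.02 in control.

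Of 14 tested assembly factors 6 fell and 2 rose (median -0.11), beside 31.2% and 31.8% of all tested genes. The nucleolar phosphoproteins NOLC1 (-0.45 ± 0.0426) and TCOF1 (-0.45 ± 0.0427), the H/ACA assembly factor NAF1 (-0.38 ± 0.0515) and the AAA+ ATPase RUVBL2 (-0.32 ± 0.0394) fell, and RUVBL1 and RUVBL2 are also subunits of the TIP60 complex. RPAP3, a scaffold of the R2TP assembly complex, rose by 0.25 ± 0.0494, and SHQ1, a dyskerin chaperone, by 0.23 ± 0.0576. Of 9 Cajal body and scaRNA factors 4 fell and 0 rose (median -0.04), beside the same shares. They were GEMIN4 at -0.59 ± 0.0487, TARDBP at -0.25 ± 0.0410, ICE2 at -0.15 ± 0.0432 and USPL1 at -0.15 ± 0.0622. COIL, the scaffold of Cajal bodies, and WRAP53, which brings scaRNAs there, were not called (-0.01 and 0.02).

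Of 22 genes for end trimming, adenylation and decay 10 fell and 2 rose (median -0.12), beside 31.2% and 31.8% of all tested genes. The exosome subunits EXOSC2 (-0.44 ± 0.0479) and EXOSC9 (-0.27 ± 0.0543), the nuclear poly(A)-binding protein PABPN1 (-0.36 ± 0.0573) and the deadenylase TOE1 (-0.45 ± 0.0727) fell, while the catalytic DIS3 and EXOSC10 were not called (0.00 and -0.06). ZCCHC7 and TENT4B, parts of the nuclear polyadenylation complex TRAMP, rose by 0.35 ± 0.0704 and 0.27 ± 0.0478. Of 9 tested genes for lariat release and exonucleolytic decay 5 rose and 1 fell (median 0.15), beside the same shares: the debranching enzyme DBR1 rose by 0.24 ± 0.0570, the exonucleases XRN1 and XRN2 by 0.28 ± 0.0455 and 0.15 ± 0.0429, and SMG1 and SMG6, which act in nonsense-mediated decay, by 0.24 ± 0.0563 and 0.28 ± 0.0490, while SMG5 fell (-0.33 ± 0.0425). Of 30 genes for ribosomal RNA processing with U3 and other snoRNAs 18 fell and 1, BMS1, rose (median -0.19), again beside 31.2% and 31.8%. Among those that fell were NAT10 at -0.48 ± 0.0439, NOP14 at -0.37 ± 0.0418, WDR3 at -0.37 ± 0.0405 and LSM4 at -0.35 ± 0.0404. PARN, ZNHIT3 and TAF9 are listed at 0 in every table.

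**Figure D5:**
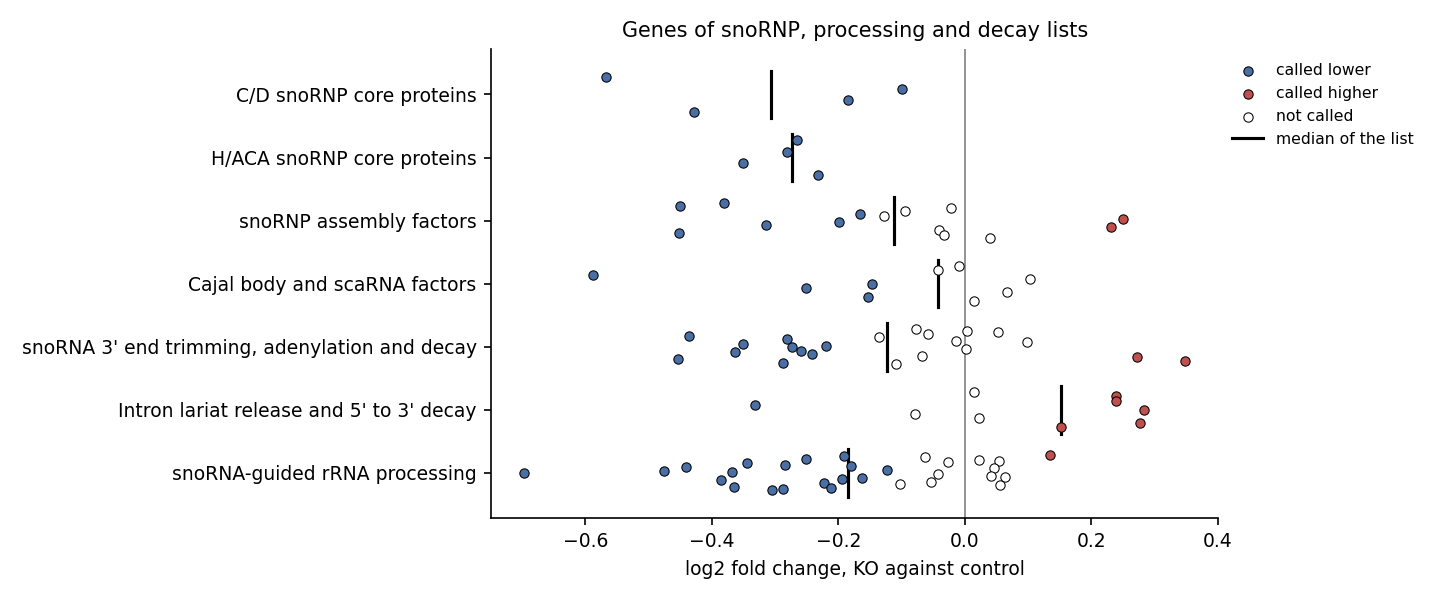
Log2 fold change of KO against control (horizontal axis) for the tested genes of 7 lists of snoRNP, assembly, maturation and decay factors (blue, called lower; red, called higher; white, not called), with a black bar at each list's median. All 8 core proteins lie to the left of 0, and lariat release and exonucleolytic decay is the list whose median lies to the right.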

How the data were processed

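Polyadenylated RNA of HEK293 was read as stranded paired-end libraries of 80 bp. The authors deposited raw counts per gene for each of the 8 libraries, counted with featureCounts on hg38 per the submitters' processing notes. The deposited tables also give each gene's length. The aligner, the annotation, the strand setting and the handling of reads shared by 2 genes are not stated in any source used here. Entries without a gene ID (0.0284 to 0.0425% of counts) were left out.

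Symbols and positions came from RefSeq, and strands, exons and sequences from GENCODE v29. A host is a gene on the same strand that spans the member. For 15 members without a strand in GENCODE, 9 of them in GAS5, any spanning gene was taken.

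The count filter was filterByExpr with the 4 combinations of arm and guide as groups (at least 10 counts in a library of median size and 15 in all). KO was compared with control in edgeR 4.0.16 (TMM, quasi-likelihood, a term for the guide, 5 residual degrees of freedom). DESeq2 1.42.0, limma-voom 3.58.1, other filters and scalings, a replicate block and omission of each library were alternatives. On simulated counts for this comparison (14237 genes), 91.8% of 2-fold rises and 89.8% of 2-fold falls were called. The changed genes were drawn from all genes that passed the filter. Of these 14455 genes only 3525 had totals in the tested members' range of 42 to 613 counts, so the rates are not those of the members. Same-numbered libraries correlated at 0.0151 to 0.0276 in their deviations.

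Members and lists were chosen with earlier results of these data known. Named are all called members, the most abundant and uncalled ones by class, U3, U13 and U17, shared hosts and up to 4 genes per list by p. Other members and COIL, WRAP53, DIS3, EXOSC9, EXOSC10, ZCCHC7, DBR1, XRN2, RPAP3, SHQ1, BMS1 and RUVBL1 were named after their values were seen. Some host genes are not reported here.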

Additional observations from a re-analysis of the deposited data

Results flagged for a closer look

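In 4 of the 76 groups of 4 libraries examined, 1 library stood far from the other 3, and chance gives this in about 1 group in 20. SNORD22 read 0.969 CPM in control sgRNA1 replicate 1, while the next lowest control library read 2.03. SNORD35B read 3.23 CPM in control sgRNA1 replicate 2, the shallowest library, and 1.06 in the next highest control library. SNORD3A read 2.05 CPM in KO sgRNA2 replicate 2 and 1.34 in the next highest KO library. SNORD3B-2 read 0.138 CPM in control sgRNA2 replicate 1 and was listed at 0 in the other 3 control libraries.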

How the results depend on the processing

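Depth limited the tests: 64 of 150 members had fewer than 50 counts. Thinning every library to 3723992 counts left 19 members tested, with 0 rising and 0 falling (edgeR, 3 lower at an unadjusted p under 0.05), 24 hosts falling, and 4 list genes rising and 26 falling where 10 rose and 47 fell at full depth. Class medians after thinning were -0.57 (H/ACA), -0.61 (C/D) and -1.80 (1 scaRNA). Requiring 1 CPM in 4 libraries left 42 members tested and 1 rise. With all 150 members the medians were -0.33, -0.36 and -0.39, and with no filter -0.40 for C/D and -0.45 for scaRNAs. A further set took only members with a strand in GENCODE that share no base with another gene's annotated exon on either strand. Over these the C/D median turned to 0.11 (10 members) and the H/ACA median was -0.28 (5 members). The cause was not tested.

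Over omissions of 1 library, 0 to 3 members rose and 13 to 25 fell, and class medians ranged from -0.54 to -0.28, -0.62 to -0.44 and -0.88 to -0.14. Ratios of summed CPM ranged from 0.689 to 0.803 for all members, 0.714 to 0.833 for H/ACA and 0.676 to 0.792 for C/D, each highest without control sgRNA1 replicate 2. SNORA61 turned to -0.14 after thinning, and SNORA8, not called, to 0.089 after thinning, with -0.25 to 0.0069 over omissions, the highest without KO sgRNA2 replicate 2. With a replicate block 4 members rose and 21 fell. The numbers name replicates only, the block ended the call of SNORD83B and moved no count by over 1.5 times. DESeq2 called 3 rises and 13 falls and limma-voom 3 and 20.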
